A study of Mus musculus with 32 samples.

Results

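Thy1, Cd44, Ly6a, Eng, Nt5e, Icam1, Pdgfra and Pdgfrb are 8 genes for cell-surface proteins by which fibroblasts and related stromal cells are commonly marked. They were chosen by name, with earlier results of these data known, and are 8 of the 24421 genes in the tables. The counts of called markers and list genes below are therefore descriptions, not an unbiased test. The 8 were followed through a single-cell RNA study of reprogramming of mouse embryonic fibroblasts (MEFs). All 8 had a column in each of the 32 libraries. The libraries form 16 groups of 2, called A and B. MEFs were reprogrammed with doxycycline at 2 ug/mL, plated on irradiated feeder MEFs. The A2S cultures (days 2, 4 and 6) also received ascorbic acid at 50 ug/mL, SGC0946, an inhibitor of the histone methyltransferase DOT1L, at 5 uM, and 12 h later 2i, the GSK3 inhibitor CHIR-99021 with the MEK inhibitor PD-0325901. Other cultures, at days 4 and 6, went without 1 component each, as read from the letters of their names: SGC0946 in A2, ascorbic acid in S2 and 2i in AS. The FBS cultures (days 3, 6, 9 and 12), named after serum, have no such treatment in the labels. V6.5 embryonic stem cells (ESCs) with A2S for 2 days, untreated ESCs and untreated MEFs completed the set. The labels give no strain of the MEFs and leave unsaid whether A and B of a group were separate cultures. The p-values therefore cover only the spread between these libraries, which may be technical.

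Of 8334 cell barcodes, 684 on the authors' list of feeder cells were left out and 7650 kept, 138 to 431 a library. The kept cells of a library held 1727490 to 8848775 unique molecular identifiers (UMIs, each standing for 1 captured transcript), with a median of 5240 to 23194.5 per cell. The listed share of a library ran from 0% to 35.8% and was highest in FBS day 3 and A2S day 2. A total of 34 barcodes occurred in more than 1 library. AS day 4 B stood apart from AS day 4 A in 12 interferon response genes, which summed to 1269 CPM (UMI counts scaled to a common library total) in B and 47.9 CPM in A. The fibroblast label of the MEFs held: 8 fibroblast markers summed to 12.6 and 9.91 CPM in ESCs, against 10409 and 9495 CPM in MEFs, where none was at 0. A list of 8 blood and macrophage genes summed to 45.8 to 359.9 CPM in the reprogramming libraries and to 9.46 and 12.7 CPM in MEFs. The sums were 101 and 173 CPM in FBS day 6 A and B and 121 and 210 CPM in FBS day 12 A and B. In the test below, FBS day 12 against MEFs had 5 of 6 such genes higher and 0 lower (54.5% of all genes called). Laptm5 led the highest of the sums, with group means of up to 323 CPM, while Ptprc, which defines leukocytes, averaged 0 to 1.53 CPM. In FBS day 6 B, FBS day 12 B and AS day 4 B none of the 8 genes was at 0. In the A libraries of these groups 4, 3 and 6 of the 8 were at 0, in that order. The part of such cells in the results was not tested.

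Thy1 is a GPI-anchored glycoprotein, and its loss is used to sort fibroblasts that enter reprogramming. Cd44, the hyaluronan receptor, and Icam1, a ligand of leukocyte integrins, have been used to order later steps. Ly6a (Sca-1) is a GPI-anchored antigen of stromal and blood progenitors. Nt5e (CD73) is the ectoenzyme that turns extracellular AMP into adenosine, and Eng is a co-receptor for ligands of the TGF-beta and BMP family. Pdgfra and Pdgfrb are the receptor tyrosine kinases through which platelet-derived growth factors drive growth and migration of mesenchymal cells.

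The promoters of Icam1, Nt5e and Pdgfra are shown because the first pair rose and the last was lower between days 2 and 4 of A2S. They are the 250 bases before the transcription start, from RefSeq (GRCm38.p6), on the plus strand, at chr9:21015690-21015939 for Icam1, chr9:88327359-88327608 for Nt5e and chr5:75152001-75152250 for Pdgfra. RefSeq promoters matched 5 of the 8 genes by symbol. Capitals mark matches on either strand to an NF-kB site (GGAAATTCC), a GAS element (TTCNNNGAA) or a GC box (GGGCGG).
Icam1: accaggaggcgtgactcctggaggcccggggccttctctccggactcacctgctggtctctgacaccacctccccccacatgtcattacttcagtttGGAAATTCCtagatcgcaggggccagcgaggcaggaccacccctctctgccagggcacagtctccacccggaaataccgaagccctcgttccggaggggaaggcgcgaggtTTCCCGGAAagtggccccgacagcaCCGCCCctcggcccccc
Nt5e: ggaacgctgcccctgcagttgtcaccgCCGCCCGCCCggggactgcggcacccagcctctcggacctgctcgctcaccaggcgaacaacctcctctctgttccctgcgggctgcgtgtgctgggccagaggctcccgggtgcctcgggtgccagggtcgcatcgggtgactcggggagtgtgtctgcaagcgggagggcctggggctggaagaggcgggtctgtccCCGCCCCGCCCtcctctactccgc
Pdgfra: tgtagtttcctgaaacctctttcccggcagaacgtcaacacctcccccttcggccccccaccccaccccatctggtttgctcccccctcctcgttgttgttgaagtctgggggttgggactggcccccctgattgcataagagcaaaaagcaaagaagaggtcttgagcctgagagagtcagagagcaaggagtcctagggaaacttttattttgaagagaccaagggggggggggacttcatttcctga
The Icam1 window held the NF-kB site at position -153 from the start, the GAS element at -42 and a GC box at -17. Among 32841 promoter windows of this length, the NF-kB site occurred in 0.286%, the GAS element in 7.02% and the GC box in 32.8%. The Nt5e window held GC boxes at -223, -219, -24 and -19, each overlapping its neighbour, and the Pdgfra window held none of the 3 motifs. A TATA box (TATAAA, in 12.4% of windows) had no match in these 3 windows. Matches are descriptions of letters, not measured sites.

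By the GENCODE annotation of mm10, Thy1 (chr9:44043384-44048579), Icam1 (chr9:21015985-21028817) and Nt5e (chr9:88327197-88372092) lie on the plus strand of chromosome 9. GENCODE places the start of Nt5e upstream of the RefSeq start used above, so the printed Nt5e window lies inside the GENCODE gene. Ly6a lies at chr15:74994877-74998031 and Cd44 at chr2:102811141-102901665, both on the minus strand, and Eng (chr2:32646595-32682669) and Pdgfra (chr5:75152292-75198215) on the plus strand. Eng overlaps Fpgs on the other strand, and Icam1 and Pdgfra overlap annotated antisense transcripts. Whether the counting used the strand is not given in the sources used here, so values of these 3 genes could include reads of their partners.

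In untreated MEFs, Cd44 and Thy1 were the most counted of the 8. Levels are CPM scaled with TMM factors and are not corrected for transcript length, so each gene is compared with itself. Cd44 had 1820.1 and 1805 CPM and Thy1 1199.7 and 1118 CPM in MEF A and B. Pdgfrb had 104 and 95.9 CPM, Ly6a 85.95 and 92.03 CPM and Pdgfra 58.4 and 54.96 CPM. Eng (6.31 and 5.70 CPM), Icam1 (4.98 and 7.26 CPM) and Nt5e (2.82 and 5.57 CPM) were counted rarely. Replicate libraries lay close for the 5 abundant genes and less so for Nt5e and Icam1.

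Not every MEF carried Thy1. No Thy1 UMI was found in 76 cells of MEF A (25.5%) and 109 of MEF B (25.3%), with median depths of 20898 and 15505 UMIs, against 23262 and 20380.0 in Thy1-positive cells. The positive cells had a median of 24 and 18.5 Thy1 UMIs, so that zeros stood beside cells with many copies. Cd44 was at 1445 and 1501 CPM in Thy1-zero cells, against 1606 and 1593 CPM in Thy1-positive cells, and the collagen gene Col1a1 at 1794 and 1492 CPM, against 1544 and 1354 CPM. Both kinds of cell thus held Cd44 and Col1a1. Ly6a was at 52.5 and 60.5 CPM in Thy1-zero cells, against 80.5 and 85.5 CPM in Thy1-positive cells. Pdgfra was at 44.9 and 45.4 CPM in Thy1-zero cells, against 52.0 and 48.6 CPM in Thy1-positive cells. Pdgfrb was at 80.3 and 82.1 CPM, against 92.3 and 84.0 CPM. Both were thus lower in the Thy1-zero cells, by little in MEF B. Icam1 was at 1.90 and 3.24 CPM in Thy1-zero cells, against 4.99 and 7.15 CPM. It was found in only 2.63% and 4.59% of the Thy1-zero cells. Nt5e was at 5.06 and 14.6 CPM in Thy1-zero cells, against 1.66 and 2.29 CPM in Thy1-positive cells, higher without Thy1 in both libraries. Cells are not replicates, and these values were not tested.

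In the FBS cultures 4 of the 8 markers were below their MEF level at day 3, and Thy1, Pdgfra and Pdgfrb were higher again at day 12. Thy1 had 1199.7 and 1118 CPM in MEFs, 261 and 309 at day 3, 497 and 473 at day 6, 303 and 274 at day 9 and 619 and 597 at day 12. It dipped at days 3 and 9, and libraries of neighbouring times did not overlap. Cd44 had 1820.1 and 1805 CPM in MEFs, 657 and 808 at day 3, 604 and 585 at day 6, 410.3 and 413 at day 9 and 412 and 411 at day 12, without a return. Ly6a had 85.95 and 92.03 CPM in MEFs, 547 and 493 at day 3, 973 and 914 at day 6, 899 and 1157 at day 9 and 797 and 761 at day 12, above both MEF libraries at every time. Nt5e had 2.82 and 5.57 CPM in MEFs, 4.87 and 3.76 at day 3, 14.5 and 14.95 at day 6, 28.6 and 23.1 at day 9 and 62.9 and 67.2 at day 12, with no overlap between neighbouring times after day 3.

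The PDGF receptors fell together and returned unequally. Pdgfrb had 104 and 95.9 CPM in MEFs, 25.8 and 30.98 at day 3, 39.9 and 40.02 at day 6, 53.3 and 49.97 at day 9 and 104 and 95.7 at day 12, where its libraries overlapped those of MEFs. Pdgfra had 58.4 and 54.96 CPM in MEFs, 17.5 and 11.3 at day 3, 14.8 and 9.67 at day 6, 13.1 and 11.5 at day 9 and 19.6 and 26.99 at day 12, still below both MEF libraries. Icam1 lay between 2.91 and 12.8 CPM and Eng between 4.38 and 12.0 CPM over the FBS libraries.

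Changes were tested with edgeR's quasi-likelihood test on UMIs summed per library, with a call where the p adjusted by Benjamini and Hochberg over 13229 genes was under 0.05, and all 8 markers passed the filter on low counts. In such sums, fewer cells with a transcript and less of it per cell cannot be told apart. At FBS day 3 against MEFs, 1 marker was higher and 4 were lower, where 40.8% of all genes were called. Thy1 fell by 2.02 ± 0.16 (adjusted p = 7.91e-12) on the log2 scale, and Ly6a rose by 2.54 ± 0.22 (adjusted p = 5.14e-11). Here and below, ± after a change on the log2 scale is a standard error derived from the test statistic. Pdgfra fell by 1.97, Pdgfrb by 1.82 and Cd44 by 1.31. The median of the 8 was -0.77, against 0 for all genes. The interferon list had 12 higher and 0 lower of 12 called there, and its part in these results was not tested. With the listed cells kept, Pdgfra was at -0.35 (adjusted p = 0.249), Pdgfrb at -0.60 (adjusted p = 0.00793) and Nt5e at 1.61 (adjusted p = 8.64e-05), and Icam1 was also called.

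From day 3 to 6, 4 markers rose and none fell (37.8% of genes called): Nt5e by 1.75 ± 0.34 (adjusted p = 1.23e-04), Ly6a by 0.86, Thy1 by 0.77 and Pdgfrb by 0.50 ± 0.20 (adjusted p = 0.0493). The Pdgfrb call was lost when any 1 of the 4 libraries was left out and with DESeq2 (adjusted p = 0.131), and with the listed cells kept its log2 fold change was -0.39. In that setting Nt5e was at 0.09 (adjusted p = 0.856) from day 3 to 6, so that its call rests on leaving the listed cells out. From day 6 to 9, 3 fell and none rose (9.37% called), Icam1 by 1.88 ± 0.44 (adjusted p = 0.00627), Thy1 by 0.75 and Cd44 by 0.53. From day 9 to 12, 5 rose and none fell (12.5% called). Thy1 rose by 1.08 ± 0.16 (adjusted p = 4.09e-05), Icam1 by 1.61, Nt5e by 1.34, Pdgfrb by 0.95 and Pdgfra by 0.93. Without FBS day 9 A, 1 marker was called between days 6 and 9 and 3 between days 9 and 12, and without FBS day 9 B the interval from day 9 to 12 also gave 3. The Cd44 call between days 6 and 9 was lost without FBS day 6 A or FBS day 9 A, and that of Thy1 with the listed cells kept (-0.61, adjusted p = 0.122). Between days 9 and 12 that of Icam1 was lost without FBS day 9 A, FBS day 9 B or FBS day 12 A. Pdgfra was not called there with DESeq2 (adjusted p = 0.185) or without FBS day 9 A, FBS day 9 B or FBS day 12 B.

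At FBS day 12 against MEFs, 2 markers were higher and 3 lower (54.5% of genes called). Nt5e was higher by 3.90 ± 0.25 (adjusted p = 2.31e-14) and Ly6a by 3.13 ± 0.22 (adjusted p = 2.59e-13). Cd44 was lower by 2.14, Pdgfra by 1.27 and Thy1 by 0.93 on the log2 scale. Pdgfrb stood at 0.00 ± 0.16 (adjusted p = 1). Listed feeder cells held 82.5 to 394 CPM of Pdgfrb over 13 groups with 10 or more such cells, and the part of feeder cells missing from the list was not tested.

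**Figure D1:**
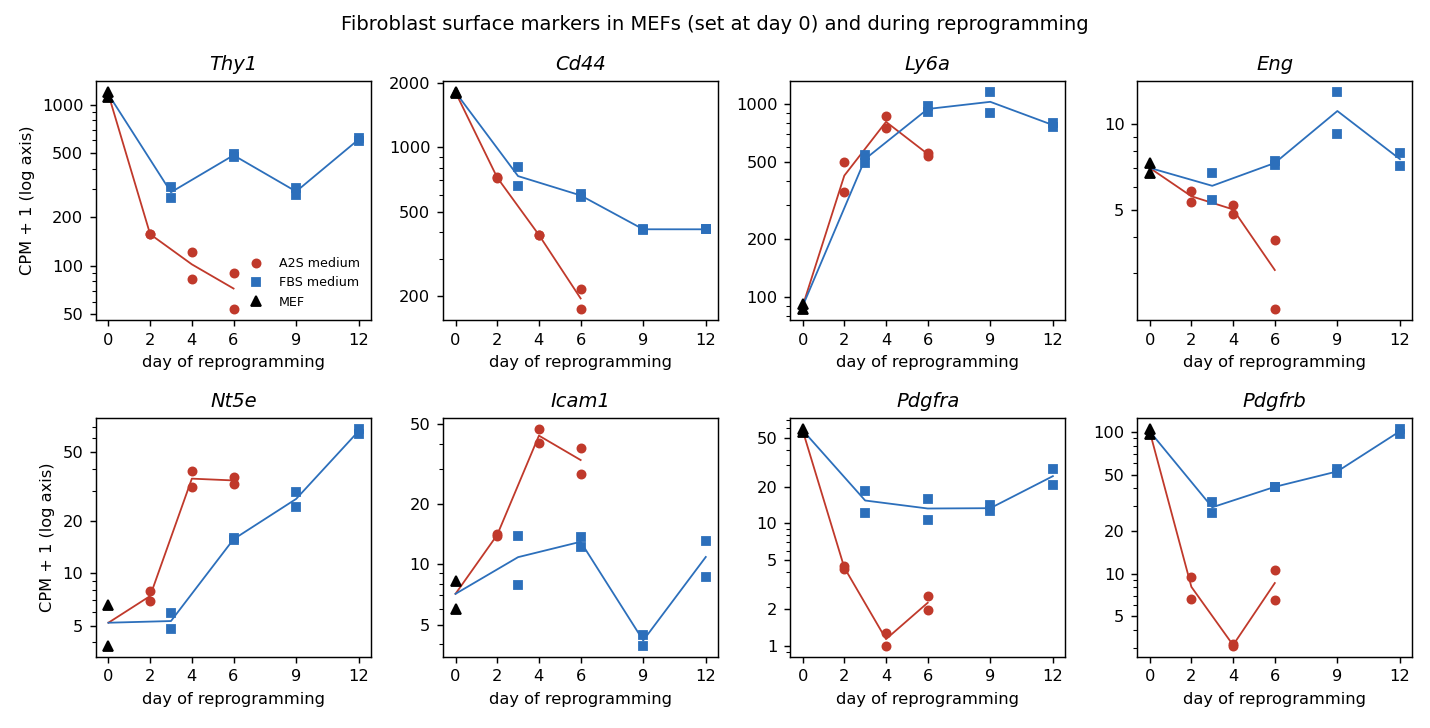
Level of each gene in CPM plus 1 on a log axis against the day of reprogramming, with MEFs at day 0. Points are single libraries, 2 per group, and lines join group means; Thy1 reached 89.8 and 52.8 CPM at day 6 of A2S and 619 and 597 CPM at day 12 of FBS.

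In A2S the loss of Thy1, Cd44 and the PDGF receptors went further, and Nt5e and Icam1 rose between days 2 and 4. Thy1 had 1199.7 and 1118 CPM in MEFs, 155 and 157 at day 2, 121 and 81.2 at day 4 and 89.8 and 52.8 at day 6. Cd44 had 1820.1 and 1805 CPM in MEFs, 714 and 727 at day 2, 386 and 388 at day 4 and 216 and 173 at day 6. Both went down at each step, although Thy1 libraries of days 4 and 6 overlapped. Pdgfrb had 104 and 95.9 CPM in MEFs, 5.66 and 8.49 at day 2, 2.18 and 2.10 at day 4 and 5.53 and 9.65 at day 6. Pdgfra had 58.4 and 54.96 CPM in MEFs, 3.50 and 3.21 at day 2, 0.272 and 0 at day 4 (1 UMI in all) and 1.54 and 0.965 at day 6. Both receptors were thus close to undetected at day 4. Ly6a had 85.95 and 92.03 CPM in MEFs, 503 and 349 at day 2, 865 and 754 at day 4 and 561 and 541 at day 6, highest in the middle. Nt5e had 2.82 and 5.57 CPM in MEFs, 5.93 and 6.89 at day 2, 30.5 and 37.7 at day 4 and 34.7 and 31.9 at day 6. Icam1 had 4.98 and 7.26 CPM in MEFs, 13.2 and 12.9 at day 2, 39.2 and 46.6 at day 4 and 27.4 and 37.00 at day 6, with no library of day 2 reaching those of day 4.

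At A2S day 2 against MEFs, 2 markers were higher and 4 lower (49.8% of genes called), with a median of -0.86 over the 8. Pdgfra fell by 4.07 ± 0.27 (adjusted p = 3.15e-13), Pdgfrb by 3.79 ± 0.21 (adjusted p = 1.43e-15) and Thy1 by 2.89 ± 0.17 (adjusted p = 2.26e-15). Cd44 fell by 1.33, while Ly6a rose by 2.26 and Icam1 by 1.06. Without MEF A, Icam1 was at 0.77 (adjusted p = 0.0522), and with the listed cells kept Pdgfrb was at -2.28. From day 2 to 4, 3 rose and 4 fell (29.5% called). Nt5e rose by 2.37 ± 0.27 (adjusted p = 3.41e-08), Icam1 by 1.70 ± 0.24 (adjusted p = 1.46e-06) and Ly6a by 0.93. Pdgfrb fell by 1.72, Cd44 by 0.90 and Thy1 by 0.59, and Pdgfra gave a ratio of 0.0536 (95% counting interval 0.00131 to 0.325, 1 against 27 UMIs). Thy1 was at -0.35 (adjusted p = 0.228) without A2S day 4 B, and its call was also lost without A2S day 2 A, without A2S day 2 B and with the listed cells kept. The Pdgfrb call was lost without A2S day 2 B or A2S day 4 A. From day 4 to 6, 1 rose and 3 fell (24.6% called). Pdgfrb rose by 1.79 ± 0.44 (adjusted p = 0.00297), and Cd44 fell by 0.99 ± 0.14 (adjusted p = 2.14e-06), Ly6a by 0.56 ± 0.20 (adjusted p = 0.0426) and Thy1 by 0.54 ± 0.19 (adjusted p = 0.0385). Of these 4, 2 were called with RLE factors, library totals or DESeq2. Cd44 alone kept its call without A2S day 4 A or without A2S day 6 B. The Pdgfrb call, which rests on 12 UMIs at day 4, was thus lost there. Thy1 was at -0.17 without A2S day 4 A and -0.18 without A2S day 6 B.

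Over the whole A2S course, day 6 against MEFs, 3 markers were higher and 5 lower (66.1% of genes called; median of the 8 -2.37). The log2 fold change was -5.45 for Pdgfra, -4.02 for Thy1, -3.72 for Pdgfrb, -3.22 for Cd44 and -1.53 for Eng. Nt5e was higher by 2.93, Ly6a by 2.63 and Icam1 by 2.36. Set against FBS at the same day 6, A2S had 2 markers higher and 6 lower (52.7% called; median -1.61). Thy1 had 89.8 and 52.8 CPM in A2S, against 497 and 473 CPM in FBS, lower by 2.76 ± 0.18 (adjusted p = 4.75e-14). Pdgfra was lower by 3.28, Pdgfrb by 2.40, Cd44 by 1.61, Eng by 1.61 and Ly6a by 0.78. Icam1 was higher by 1.44 ± 0.26 (adjusted p = 2.90e-05) and Nt5e by 1.18 ± 0.24 (adjusted p = 1.56e-04). Without A2S day 6 A, Eng was at -1.06 (adjusted p = 0.104) against MEFs and at -1.09 (adjusted p = 0.135) against FBS, where its call was also lost without FBS day 6 A.

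The media that lacked 1 component were set against A2S of the same day, so that the 3 comparisons of a day share the A2S libraries. Without 2i (AS), Thy1 and Ly6a were well above A2S. Thy1 had 258 and 374 CPM at day 4 and 359 and 367 at day 6 in AS, against 121 and 81.2 at day 4 and 89.8 and 52.8 at day 6 in A2S. Ly6a had 1628 and 3327 CPM at day 4 and 2499 and 3005 at day 6 in AS, against 865 and 754 at day 4 and 561 and 541 at day 6 in A2S. All AS libraries lay above the A2S libraries of their day for both genes. Without ascorbic acid (S2), Thy1 had 27.8 and 25.6 CPM at day 4 and 46.2 and 54.2 at day 6, and Ly6a 357 and 399.9 at day 4 and 279 and 236 at day 6, so that Ly6a was below A2S on both days. Without SGC0946 (A2), Cd44 had 676 and 714 CPM at day 4 and 559 and 616 at day 6, against 386 and 388 at day 4 and 216 and 173 at day 6 in A2S, with no overlap on either day. Nt5e at day 4 had 8.04 and 14.6 CPM in A2, 65.1 and 47.9 in S2 and 6.11 and 6.91 in AS, against 30.5 and 37.7 in A2S. Only S2 was above A2S there.

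At day 4, AS against A2S had 5 markers higher and 2 lower (30.0% of genes called). Thy1 was higher by 1.63 ± 0.17 (adjusted p = 1.36e-08), Ly6a by 1.62, Cd44 by 1.03 and Pdgfrb by 2.05, and Pdgfra gave a ratio of 16.4 (95% counting interval 2.61 to 683, 19 against 1 UMIs). Nt5e was lower by 2.33 and Icam1 by 1.80. Without AS day 4 B, 6 were called: Ly6a was at 1.003 (adjusted p = 2.38e-05), and Pdgfra was not called (adjusted p = 0.142). A2 had 1 marker higher and 2 lower (14.4% called), with Cd44 at 0.84, Nt5e lower by 1.66 and Icam1 lower by 0.98. S2 had 1 higher and 2 lower (6.55% called). Thy1 was lower by 1.95 ± 0.22 (adjusted p = 7.92e-07) and Ly6a by 1.10, and Nt5e was higher by 0.76 ± 0.21 (adjusted p = 0.0250). The listed share was 9.86% and 13.8% in S2 day 4, against 0.417% and 0% in A2S day 4. With the listed cells kept, Thy1 in S2 was at -0.66 (adjusted p = 0.183) and Pdgfrb at 1.88 (adjusted p = 0.00626). The Nt5e call in S2 was lost in that setting, with DESeq2 (adjusted p = 0.122), without A2S day 4 A (0.57, adjusted p = 0.358) and without S2 day 4 A. The Icam1 call in A2 was lost without A2 day 4 A.

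At day 6, AS against A2S had 6 markers higher and 1 lower (38.6% called). Thy1 was higher by 2.34 ± 0.18 (adjusted p = 5.89e-12), Ly6a by 2.32 ± 0.21 (adjusted p = 1.92e-10), Pdgfra by 2.66, Pdgfrb by 1.78, Eng by 1.41 and Cd44 by 1.29. Nt5e was lower by 0.59 ± 0.22 (adjusted p = 0.0353), a call lost with DESeq2, with the listed cells kept and when any 1 of the 4 libraries was left out. Eng was at 0.54 (adjusted p = 0.590) without AS day 6 A and at 0.89 (adjusted p = 0.267) without A2S day 6 A, and was not called with DESeq2 (adjusted p = 0.0884). A2 had 4 higher and 0 lower (30.8% called), Pdgfrb by 1.62 ± 0.26 (adjusted p = 1.53e-05), Cd44 by 1.59 ± 0.13 (adjusted p = 1.01e-10), Ly6a by 0.999 and Thy1 by 0.92. S2 had 1 higher and 2 lower (16.1% called), with Cd44 at 0.84, Pdgfrb lower by 1.25 ± 0.40 (adjusted p = 0.0306) and Ly6a lower by 1.10. With the listed cells kept, the Pdgfrb value in S2 was 0.70 (adjusted p = 0.142), and its call was also lost without A2S day 6 B, S2 day 6 A or S2 day 6 B. Icam1 was not called in any of the 3 media at day 6.

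Whether the day 4 to 6 change differed from that in A2S was tested as an interaction. For A2, 3 markers were called (7.91% of genes): Nt5e at 1.77 ± 0.34 (adjusted p = 0.00105), Icam1 at 1.12 ± 0.32 (adjusted p = 0.0244) and Cd44 at 0.75 ± 0.19 (adjusted p = 0.0104). For S2, Thy1 alone of the 8 was called (3.39% of genes), at 1.44 ± 0.31 (adjusted p = 0.00820). For AS, 2 were called (10.9% of genes), Nt5e at 1.74 ± 0.37 (adjusted p = 0.00170) and Icam1 at 1.66 ± 0.34 (adjusted p = 0.00119). Without AS day 4 B, Icam1 was at 1.12 (adjusted p = 0.0650), and Ly6a (1.29, adjusted p = 2.35e-04) and Thy1 (1.01, adjusted p = 0.00693) were called beside Nt5e. The S2 call was lost without A2S day 4 A, without A2S day 6 B and with the listed cells kept, and for A2 only 1 marker was called without A2 day 4 A or without A2 day 6 B. The Icam1 call for A2 was lost with DESeq2 and without any of 6 libraries, A2S day 4 B, A2S day 6 A and the 4 of A2. That of Cd44 was lost without A2S day 6 B, A2 day 4 A or A2 day 6 B and with the listed cells kept.

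**Figure D2:**
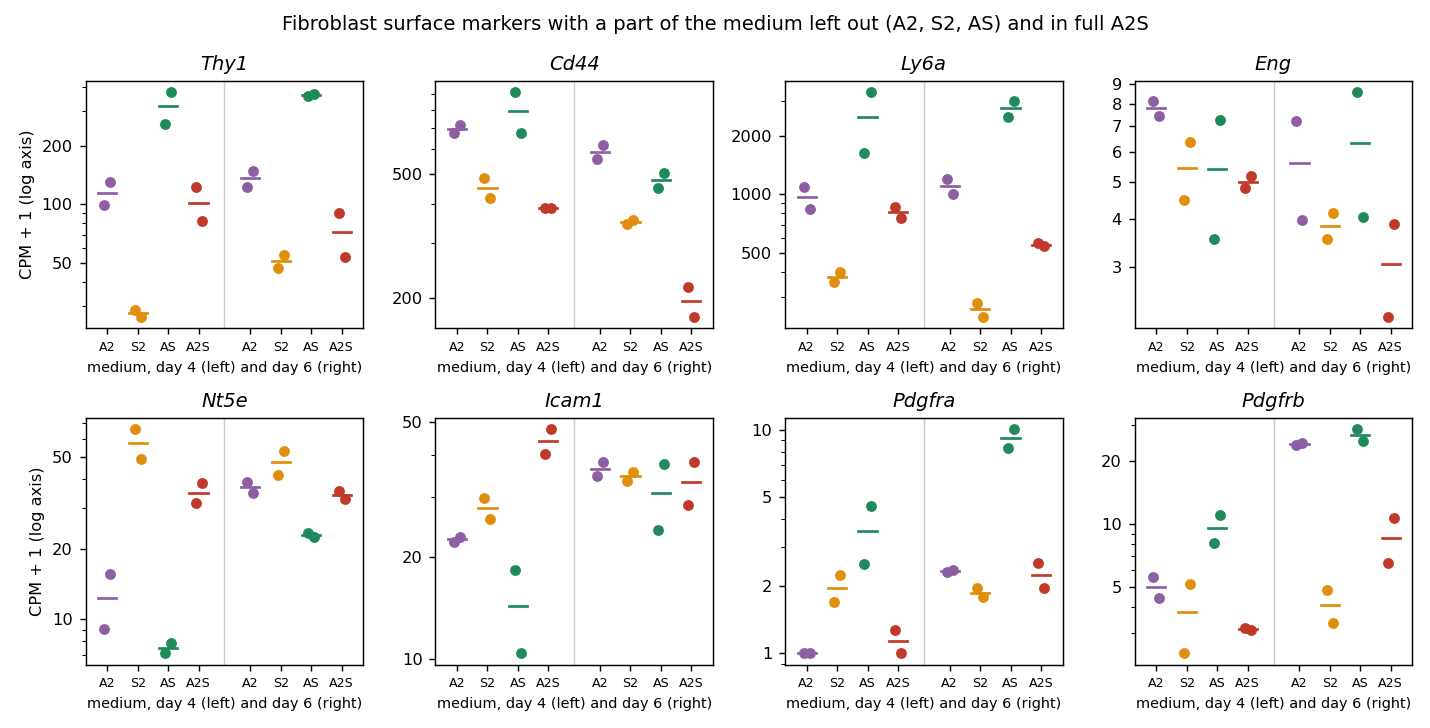
Level of each gene in CPM plus 1 on a log axis at days 4 and 6 in A2, S2, AS and A2S. Points are single libraries, 2 per group, and bars their means; the AS libraries lie above A2S for Thy1 and Ly6a on both days.

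Within day 6 cultures, cells with a UMI of Epcam, an adhesion protein of epithelial and pluripotent cells, had less Thy1, Ly6a and Cd44 than cells in which none was read. Epcam was read on cells thinned to 1000 UMIs, since depth differs between cells. An Epcam-zero cell can thus hold Epcam UMIs that were not drawn. A total of 4 libraries, A2S day 6 A and B and S2 day 6 A and B, had at least 20 cells of each kind. In that order Thy1 had 39.7, 8.09, 16.1 and 3.19 CPM in Epcam-positive cells, against 125, 74.2, 57.2 and 65.8 CPM in Epcam-zero cells. Ly6a had 342, 142, 91.7 and 12.8 CPM in Epcam-positive cells, against 734, 740.4, 346 and 286 CPM in Epcam-zero cells. Every library was lower in its Epcam-positive cells for both genes. In S2 day 6 B these values rest on 1 Thy1 and 4 Ly6a UMIs in 26 Epcam-positive cells. Cd44 had 149, 116, 272 and 268 CPM in Epcam-positive cells, against 274, 212, 385 and 393 CPM in Epcam-zero cells. Nt5e had 30.7, 24.3, 22.5 and 15.97 CPM in Epcam-positive cells, against 40.6, 38.1, 48.3 and 61.5 CPM in Epcam-zero cells. With the library as a block, 0 markers were higher and 4 lower of the 5 tested, where 10.1% of 10038 genes were called. Thy1 fell by 2.14 ± 0.23 (adjusted p = 8.20e-07), Ly6a by 1.89 ± 0.18 (adjusted p = 1.64e-07), Nt5e by 0.86 ± 0.22 (adjusted p = 0.0134) and Cd44 by 0.70 ± 0.10 (adjusted p = 2.35e-05), each lower in 4 of 4 libraries. The Nt5e call was lost without S2 day 6 A, without S2 day 6 B, with thinning to 500 or 2000 UMIs, with at least 10 or 40 cells of each kind and with Nanog in place of Epcam, and without thinning its value was 0.013 (adjusted p = 0.966). Over the alternative settings Thy1 ranged from -3.23 to -1.89, Ly6a from -3.51 to -1.11 and Cd44 from -2.96 to -0.62. Their calls were kept in all of these, but their sizes depend on the setting. Icam1 stood at -0.25 ± 0.23 (adjusted p = 0.574), lower in 3 of 4. Of 35 other mesenchymal surface genes tested in the same way, 0 were higher and 22 lower (median -0.79, against 0.00 for all genes), and of 6 fibroblast markers 6 were lower.

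**Figure D3:**
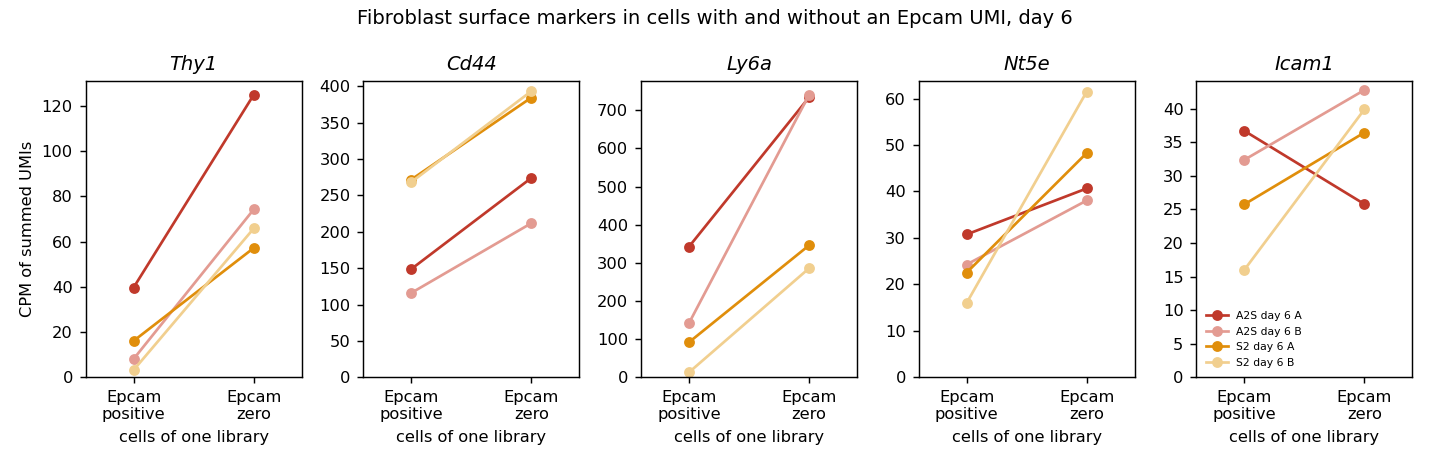
Level of 5 markers in CPM of summed UMIs, on linear axes from 0, in Epcam-positive and Epcam-zero cells of the 4 libraries, with a line joining the values of a library. Thy1 and Ly6a are lower in the Epcam-positive cells of all 4 libraries.

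Untreated ESCs held next to no Thy1, Cd44, Ly6a or PDGF receptor transcripts. Thy1 had 3.77 and 4.04 CPM in ESCs, against 1199.7 and 1118 CPM in MEFs. Cd44 had 2.09 and 0.734 CPM in ESCs, against 1820.1 and 1805 CPM in MEFs, and Icam1 had 29.3 and 33.04 CPM in ESCs, against 4.98 and 7.26 CPM in MEFs. Icam1 was thus the marker that ESCs carried more of. ESCs against MEFs had 1 marker higher and 5 lower (71.8% of genes called). Cd44 was lower by 10.33, Thy1 by 8.20 and Ly6a by 5.98, and Icam1 was higher by 2.32 ± 0.26 (adjusted p = 1.81e-09). Pdgfra was at least 96.3-fold lower (0 against 776 UMIs, with a floor of 3 UMIs over the group), and Pdgfrb gave a ratio of 0.00393 (95% counting interval 4.76e-04 to 0.0142, 2 against 1366 UMIs). The median of the 8 was -6.92 as fitted and -6.29 with the PDGF receptors at these values. Cd44 was at -6.52, Thy1 at -6.23 and Ly6a at -2.73 with the listed cells kept.

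In ESCs with A2S, 6 of the 8 were higher than in untreated ESCs. Ly6a had 117 and 149.7 CPM in A2S-treated ESCs, against 2.51 and 0.367 CPM in untreated ESCs. Icam1 had 156 and 139.8 CPM in treated ESCs, against 29.3 and 33.04 CPM in untreated ESCs. Eng had 13.96 and 10.2 CPM in treated ESCs, against 4.604 and 2.94 CPM in untreated ESCs. None of these groups overlapped. In the test 6 markers were higher and 0 lower (46.7% of genes called), Ly6a by 6.57 ± 0.48 (adjusted p = 1.24e-12), Icam1 by 2.24 ± 0.20 (adjusted p = 8.62e-11), Cd44 by 1.70 and Eng by 1.69. Ly6a was at 4.29 with the listed cells kept. Pdgfra was at least 1.41-fold higher (6 against 0 UMIs), and Pdgfrb gave a ratio of 7.03 (95% counting interval 1.71 to 62.03, 20 against 2 UMIs). The treated ESC libraries had 14.2% and 10.9% of their cells on the feeder list, against 3.50% and 3.53% in untreated ESCs, and listed cells held 272 to 1325 CPM of Ly6a. Among kept treated ESCs, a UMI of the pluripotency factor Nanog was present in 95.8% and 99.4% of Ly6a-positive cells, against 95.2% and 95.5% of Ly6a-zero cells, and Col1a1 in 12.05% and 11.7%, against 10.1% and 6.06%. In treated ESCs of library A, 16 cells carried Cd44, with Col1a1 in 37.5% of them, against 9.78% of Cd44-zero cells, Nanog in 81.25%, against 96.1%, and Epcam in 31.25%, against 60.9%. The part of unlisted feeder cells in the treated ESC values was not tested. The Cd44 call was lost without ESC A2S A (0.85, adjusted p = 0.371) and without untreated ESC B (1.10, adjusted p = 0.214). That of Pdgfrb was lost without ESC A2S B or untreated ESC A, and that of Pdgfra with DESeq2 and without ESC A2S B or either untreated library.

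Against untreated ESCs, A2S day 6 cells still had 6 markers higher and 0 lower (54.5% of genes called), Ly6a by 8.61, Cd44 by 7.11, Thy1 by 4.18 and Nt5e by 2.41. Pdgfra was at least 2.14-fold higher and Pdgfrb gave a ratio of 19.3 (95% counting interval 5.06 to 164, 48 against 2 UMIs). With the listed cells kept, Ly6a was at 5.30, Cd44 at 3.37, Thy1 at 2.42 and Pdgfrb at 1.85, and Pdgfra was at -0.46 (adjusted p = 0.644), so that these sizes depend on the list. Without untreated ESC B the Pdgfra call was also lost (adjusted p = 0.0534). FBS day 12 cells had 6 higher and 1 lower (66.3% called), with Icam1 lower by 1.67 and Pdgfra at least 40.1-fold higher.

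**Figure D4:**
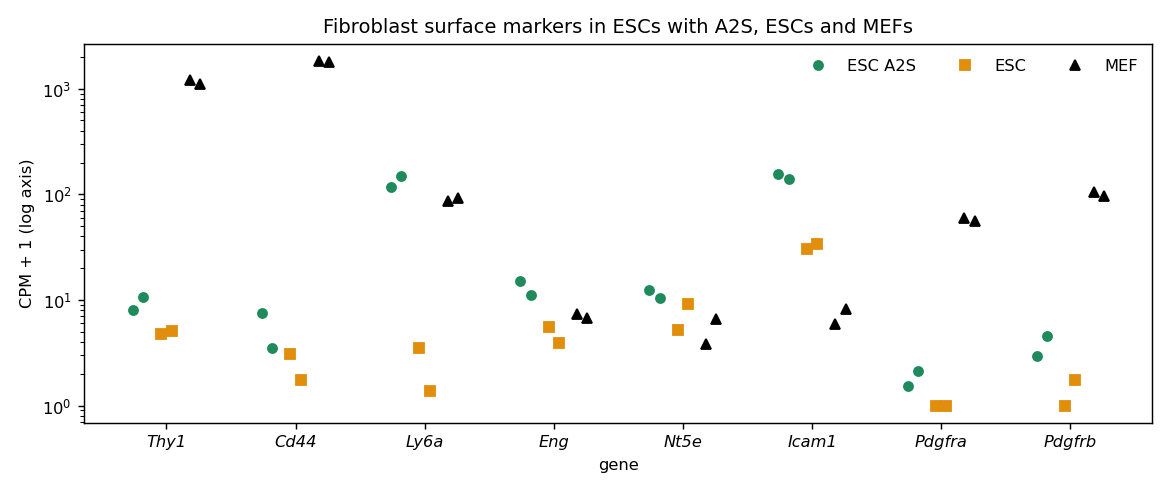
Level of each gene in CPM plus 1 on a log axis in A2S-treated ESCs, untreated ESCs and MEFs. Points are single libraries, 2 per group; Ly6a and Icam1 are higher in treated than in untreated ESCs.

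The falls of Cd44 and Thy1 from MEFs to A2S day 6 appear also in the share of cells with a UMI. Shares were read on cells thinned to 1000 UMIs, and 46 kept cells were shallower and left out. Cd44 was found in 70.5% and 68.4% of MEFs, 46.01% and 50.5% of cells at A2S day 2, 29.7% and 33.96% at day 4 and 14.8% and 12.2% at day 6. Thy1 was found in 46.6% and 46.2% of MEFs, 15.95% and 7.37% at A2S day 2, 8.79% and 8.18% at day 4 and 8.70% and 5.91% at day 6. Its shares at days 2 and 4 overlapped, with A2S day 2 B below both day 4 libraries, and those at days 4 and 6 overlapped as well. In ESCs, at this thinned depth, Cd44 and Thy1 were found in 0 of 138 and 0 of 164 cells, which allows shares of cells with a UMI of up to 2.17% and 1.83%. Without thinning, at median depths of 16462 and 14853 UMIs, Thy1 was found in 5.80% and 6.10% of ESCs and Cd44 in 2.90% and 1.22%. Without thinning, at median depths of 21404 and 23194.5 UMIs, Thy1 was found in 68.1% and 62.1% of A2S day 2 cells. Ly6a was found in 69.4% and 63.4% of AS day 6 cells, against 26.1% and 25.2% of A2S day 6 cells. None of the 8 was found in 14.4% and 15.5% of MEFs, 34.4% and 35.8% of cells at A2S day 2, 34.7% and 33.96% at day 4 and 61.7% and 63.4% at day 6, and in 96.4% and 94.5% of ESCs. Intervals and limits cover counting error only.

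Ly6a and 12 interferon response genes were both higher in some comparisons and went separate ways in others. At FBS day 3 against MEFs, at A2S day 2 against MEFs and at AS day 6 against A2S day 6, where Ly6a was higher, the list had 12, 11 and 7 genes higher. In that order 40.8%, 49.8% and 38.6% of all genes were called. Both were also high in AS day 4 B. The 12 interferon genes summed to 84.6 and 69.2 CPM in MEFs, 1127 and 1182 at A2S day 2, 34.9 and 41.4 at day 4 and 25.5 and 24.8 at day 6, while Ly6a had 503 and 349 CPM at day 2 and 865 and 754 CPM at day 4. In ESCs they summed to 53.1 and 56.9 CPM with A2S, against 276 and 258 CPM without, while Ly6a was higher. Of the 12, 0 were higher and 5 lower there (46.7% of all genes called). The part of interferon signalling in the Ly6a values was not tested. For Icam1, 12 NF-kB targets are the matching list. They had 2 higher and 3 lower of 12 from A2S day 2 to 4 (29.5% of all genes called), where Icam1 rose. At A2S day 6 against FBS day 6, where Icam1 was higher, they had 2 higher and 10 lower (52.7% called, median -1.46). From FBS day 6 to 9, where Icam1 fell, they had 0 higher and 4 lower (9.37% called). In treated against untreated ESCs, where Icam1 was higher, they had 2 higher and 1 lower (46.7% called). From A2S day 4 to 6, where Icam1 was not called, they had 0 higher and 10 lower (24.6% called). In untreated ESCs against MEFs, where Icam1 was higher, they had 0 higher and 9 lower (71.8% called). At AS day 4 against A2S day 4, where Icam1 was lower, they had 7 higher and 0 lower (30.0% called). From FBS day 9 to 12, where Icam1 rose, they had 0 higher and 1 lower (12.5% called). Further comparisons with an Icam1 call are not described here. The part of NF-kB in the Icam1 values was not tested.

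**Figure D5:**
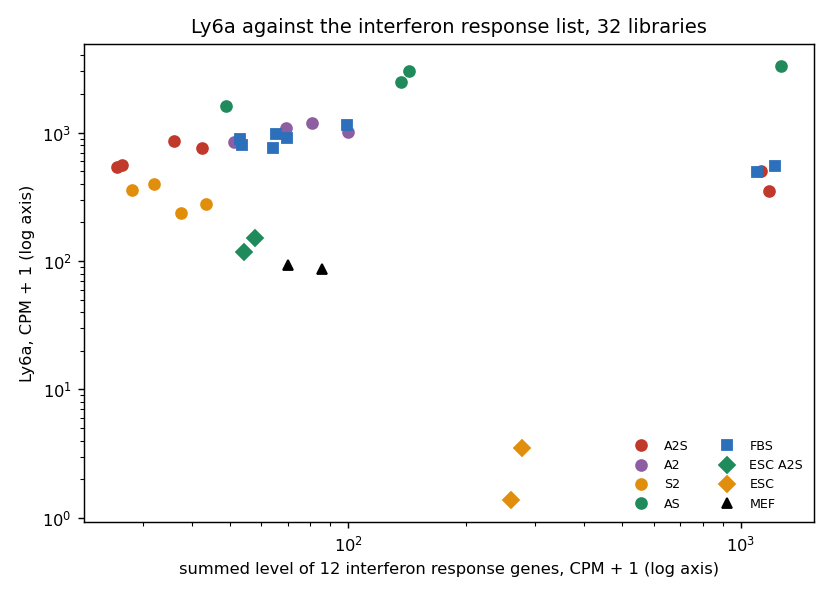
Ly6a level against the summed level of 12 interferon response genes, both as CPM plus 1 on log axes, 1 point per library (32). The high interferon sums include AS day 4 B, FBS day 3 and A2S day 2, and the highest Ly6a levels are in AS.

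Other surface genes of mesenchymal cells were mostly lower than in MEFs as well. Of 47 tested of a list of 49, 5 were higher and 34 lower at FBS day 3 against MEFs (median -0.88, 40.8% of all genes called). At A2S day 6 against MEFs, 7 were higher and 37 lower (median -2.26, 66.1% called). The median over all genes lay at 0.08 in that comparison. Nrp1, a co-receptor for semaphorins and VEGF, averaged 10.7 ± 2.57 CPM at A2S day 6, against 995 ± 15.8 CPM in MEFs (SD, n = 2). It fell by 6.53 ± 0.21 (standard error) on the log2 scale. At A2S day 6 against FBS day 6 the list had 4 higher and 32 lower (52.7% of all genes called). Cd34, a sialomucin of progenitor cells, averaged 63.3 ± 6.03 CPM in A2S, against 776 ± 48.1 CPM in FBS (SD, n = 2). AS against A2S had 31 higher and 3 lower at day 4 (30.0% called) and 32 higher and 3 lower at day 6 (38.6% called). The day 4 count includes AS day 4 B, which stood apart from AS day 4 A.

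Most of the ligands, co-receptors and linkers of the 8 were also below MEFs at A2S day 6. Of 23 tested, 5 were higher and 16 lower at A2S day 6 against MEFs (median -2.17, 66.1% of all genes called). Of the linkers that tie Cd44 to actin, Msn fell by 2.56 ± 0.10 and Ezr rose by 1.49 ± 0.13. They were named for the smallest adjusted p in each direction, so their opposite directions follow from the choice. Rdx, a further such linker on the list, is not described here. Tgfbr2, the receptor kinase that signals with Eng, averaged 23.9 ± 2.99 CPM at A2S day 6, against 182 ± 8.95 CPM at FBS day 6 (SD, n = 2). Has2, which makes the hyaluronan that Cd44 binds, fell by 5.31 ± 0.31 at A2S day 2 against MEFs.

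Across the 16 groups, Thy1, Cd44 and Pdgfra were highest in MEFs, Ly6a in AS day 6, Nt5e and Pdgfrb in FBS day 12, and Eng and Icam1 in treated ESCs. The highest group overlapped the next for Ly6a (AS day 4), Nt5e (S2 day 4), Pdgfrb (MEFs) and Eng (FBS day 9) and stood apart for Thy1, Cd44, Pdgfra and Icam1. Of the 15 pairs of neighbours in each order, the libraries overlapped in 7 for Thy1, 5 for Cd44, 8 for Ly6a and 14 for Eng, so that 1 step in the order of Eng was free of overlap. Overlaps were 10 for Nt5e, 9 for Icam1, 9 for Pdgfra and 8 for Pdgfrb. Over the 32 libraries, which differ in depth and share groups, Pearson's r of log2(CPM + 1) was 0.913 between the PDGF receptors and 0.833 between Thy1 and Cd44, and -0.721 between Thy1 and Icam1. The genes most like each by the same r, among 9589, were Mgat1 (0.962), Col3a1 (0.961), Arhgdib (0.958) for Thy1, Prrx1 (0.984), Zak (0.983), Vim (0.982) for Cd44, and Slc18b1 (0.935), Syne2 (0.927), Gsdmd (0.915) for Ly6a. For Nt5e they were Lrp4 (0.919), Tbx21 (0.898), Akap17b (0.880), and for Icam1 Fam160a2 (0.901), Vdac1 (0.895), Suz12 (0.889). For Pdgfra they were Ltbp2 (0.945), Alcam (0.942), Lrrc32 (0.935), for Pdgfrb Fat4 (0.943), Col6a3 (0.940), Cxcl12 (0.935), and for Eng Ccnd3 (0.780), Tmem160 (0.769), Gpx1 (0.736).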

How the data were processed

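Single-cell libraries of mouse cells were deposited as 1 table of UMI counts per library, with cells in rows and genes in columns. Per the submitters' processing notes, reads were handled with bcl2fastq 2.19 and STAR on mm10, with annotation, counting program and use of strand not given in the sources used here. The authors' deposited UMI counts were used as they stand, without normalization. A deposited list names feeder cells, whose barcodes were dropped; how it was made is not given in the sources used here, and 2 of its columns were not used. Doublets were kept and no caller was run.

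Counts of kept cells were summed per library and tested with edgeR 4.0.16 in R 4.3.3 (TMM factors, filterByExpr, quasi-likelihood test, all 16 groups in 1 fit, Benjamini-Hochberg adjustment). The procedure was also run on simulated counts with the same replicate spread for all genes and groups. In the real libraries that spread varied between groups, so the run gives no error rates for these data. The filter was on low counts, and 13229 genes passed. Replicate libraries differed by more than sampling noise (chi-square per degree of freedom 1.6 to 8.1). Shares were read on cells thinned to 1000 UMIs, with exact Clopper-Pearson intervals at 95%; intervals, and floors of 3 UMIs, cover counting error only. Epcam status used the thinned cells and at least 20 cells of each kind. Ratios with 1 to 3 UMIs in a group carry an exact counting interval.

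Named genes were all 8 markers, the 3 genes with the highest Pearson r to each, and from each list at most the called gene with the smallest adjusted p in each direction per comparison. Laptm5, Ptprc, Col1a1 and Nanog were named as marker checks. The members and lists were chosen with earlier results of these data known. Vcam1, Itgav and Itgb3 are each on 2 lists. Alternatives covered RLE factors, library totals, DESeq2 1.42.0, no count filter, the compared groups alone, listed cells kept, a minimum depth per cell, a replicate block, other thinning and each library left out.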

Additional observations from a re-analysis of the deposited data

Results flagged for a closer look

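A total of 6 marker results differed between media in how the level moved from day 4 to 6, by an interaction term in edgeR's quasi-likelihood fit, given as the log2 change in the medium minus that in A2S. In A2 the difference was 1.77 for Nt5e, 1.12 for Icam1 and 0.75 for Cd44. In S2 it was 1.44 for Thy1. In AS it was 1.74 for Nt5e and 1.66 for Icam1. All 3 media were set against the same A2S libraries.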

How the results depend on the processing

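Leaving out 1 library at a time kept the call, or the lack of a call, of 773 of 852 marker results, with 65 losing and 14 gaining the call. DESeq2 kept 173 of 184 in this way, and keeping the listed cells 171 of 189. Direction was compared only for results called in either fit, so uncalled results may have changed sign. With the listed cells kept, Pdgfrb turned to -0.39 at FBS day 6 against FBS day 3 and to 0.70 at S2 day 6 against A2S day 6, and Pdgfra to -0.46 at A2S day 6 against ESCs; none of the 3 was then called. Nt5e in Epcam-positive against Epcam-zero cells turned to 0.013 without thinning. Markers called at A2S day 6 against A2S day 4 went to 2 with RLE factors, library totals, listed cells kept and DESeq2. In the interaction for A2 they were 5 with no count filter and with the compared groups alone. In that for S2 they were 2 under the same settings and with DESeq2, and 0 with the listed cells kept. In that for AS they were 4 with no count filter. With 1 library left out the counts lay between 1 and 3 for FBS day 9 against FBS day 6, 3 and 4 for FBS day 12 against FBS day 9, 1 and 3 for A2S day 6 against A2S day 4, 1 and 3 for the A2 interaction and 0 and 2 for the S2 interaction. The cause was not tested.

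Counts over all genes called moved by more than 1.5 times with DESeq2, to 816 against 1239 (FBS day 9 against FBS day 6), 2114 against 3254 (A2S day 6 against A2S day 4), 1259 against 1899, 561 against 867 and 1366 against 2126 (A2 day 4, S2 day 4 and S2 day 6 against A2S), and 645 against 1047 and 902 against 1440 (A2 and AS interactions). Leaving out 1 library moved them as far in other comparisons too, to as few as 540 against 1239 (FBS day 9 against FBS day 6), 285 against 867 (S2 day 4) and 128 against 448 (S2 interaction). With the compared groups alone, AS day 4 against A2S day 4 gave 1843 against 3974 and the AS interaction 665 against 1440. The Epcam split gave 1017 genes, 509 and 2894 with 500 and 2000 UMIs, 4651 without thinning, 2276 with Nanog and 1714 with 10 cells of each kind.

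Over 120 pairs of groups, deviations of the A libraries from their group means correlated at -0.101 to 0.0826, so no pairing by letter was seen. Counting noise in genes with few UMIs also brings such correlations near 0, so these values do not decide whether A and B are paired. The replicate block changed 1 of 184 marker calls, Pdgfrb at FBS day 6 against FBS day 3 (0.50, adjusted p = 0.0612). Eng, Icam1 and Nt5e in MEFs rest on few UMIs, which limits their precision.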
